A study of Mus musculus with 18 samples.

Results

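The 2 main metallothionein genes of the mouse, Mt1 and Mt2, were examined in the kidney together with 3 genes that sense or move zinc: Mtf1, Slc30a1 and Slc39a14. The 5 genes were taken by their symbols from a table of 32675 genes, and each symbol had 1 row. RNA was sequenced from the right kidneys of 18 wild-type male C57BL/6 mice, and each of 3 groups held 6 mice. Mice of the Ctrl group were handled but not defeated, and no injections are described for them. The PBS mice were attacked daily by a CD-1 resident over 14 days, for 10 min each time, a model named chronic social defeat stress (CSDS), and were injected daily with phosphate-buffered saline. The FLX mice went through the same defeats and received fluoxetine, a selective serotonin reuptake inhibitor, at 10 mg per kg a day. All mice were labelled as 6 weeks old, and no group received fluoxetine without defeat. Whole kidneys were sequenced, so a change in the number of cells of a type cannot be told apart from a change in RNA per cell.

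The study deleted 1 PBS mouse with high inflammatory genes but did not name it, and it was taken here as PBS replicate 6. In that mouse S100a8, a gene of neutrophils, was at 22.1 FPKM against 1.82 to 7.65 FPKM in the other 5 PBS mice. The tubule injury gene Havcr1 was at 9.75 FPKM against 0.346 to 1.66 FPKM, and the 5 proximal tubule markers together were at 676 FPKM against 1058 to 1273 FPKM. Results were therefore taken from 17 mice, and values over all 18 mice are given beside them. FPKM is a level of fragments scaled by transcript length and sequencing depth. Total estimated counts were 72149987 to 79061296 in 14 mice and 48928823 to 52073640 in FLX replicates 3 to 6. A gene was called changed at an adjusted p under 0.05 by the quasi-likelihood test of edgeR. Log2 fold changes are edgeR's estimates from scaled counts unless another tool is named, so they can differ from ratios of the FPKM means. Of the 32675 genes, 20251 passed the filter on low counts, and all 5 genes of zinc handling were among them.

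Metallothioneins are small cysteine-rich proteins that bind zinc, copper and cadmium and scavenge reactive oxygen species. MTF1 is the transcription factor that is activated by free zinc, binds metal response elements and switches on Mt1, Mt2 and the zinc exporter gene Slc30a1. Glucocorticoids and interleukin-6 are the other classical inducers of Mt1 and Mt2, and interleukin-6 also induces the zinc importer gene Slc39a14. In the kidney, metallothioneins are known for protecting proximal tubules from heavy metals.

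Mt1 (ENSMUSG00000031765) lies on the plus strand of chromosome 8 at 94179082 to 94180327 in GRCm38, and Mt2 (ENSMUSG00000031762) lies upstream at 94172664 to 94173568 on the same strand. The genes are 5513 bases apart. A window of 250 bases before the RefSeq start was held for 4 of the 5 genes, and the sequences of Mt1, Mt2 and Slc30a1 are shown because these are the classical targets of MTF1. Capitals mark the core of the metal response element, searched on both strands as TGCACNC and TGCGCNC. The sequences are from RefSeq on GRCm38.p6, plus strand, at chr8:94178839-94179088 for Mt1, chr8:94172368-94172617 for Mt2 and chr1:191906531-191906780 for Slc30a1.
Mt1: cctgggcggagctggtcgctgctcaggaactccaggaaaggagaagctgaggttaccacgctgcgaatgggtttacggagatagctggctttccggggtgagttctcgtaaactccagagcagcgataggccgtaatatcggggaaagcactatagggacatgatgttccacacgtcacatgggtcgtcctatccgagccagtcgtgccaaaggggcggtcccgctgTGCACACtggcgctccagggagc
Mt2: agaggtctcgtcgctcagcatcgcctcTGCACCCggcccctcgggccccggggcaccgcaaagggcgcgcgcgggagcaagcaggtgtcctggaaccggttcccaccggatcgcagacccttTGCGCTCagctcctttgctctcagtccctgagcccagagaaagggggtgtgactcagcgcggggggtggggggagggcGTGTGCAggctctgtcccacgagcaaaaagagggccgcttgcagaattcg
Slc30a1: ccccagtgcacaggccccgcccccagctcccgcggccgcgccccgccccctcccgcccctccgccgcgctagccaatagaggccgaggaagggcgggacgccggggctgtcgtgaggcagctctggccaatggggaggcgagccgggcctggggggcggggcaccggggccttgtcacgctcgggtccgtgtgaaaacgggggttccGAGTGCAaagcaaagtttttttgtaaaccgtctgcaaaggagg

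The last 7 bases of the Mt1 window lie inside the gene as the deposited table places it. The Mt2 window held 3 matches, at positions -223, -128 and -50 from the start. The windows of Mt1 and Slc30a1 held 1 match each, at -23 and -43, and that of Mtf1 held none. At least 1 match was present in 21.4% of all 32851 windows of this length, and at least 3 were present in 1.26%. Matches also reached the 50 bases after the RefSeq start, outside these windows: 1 for Mt2, at position 5, and 1 for Slc30a1, at position 31. A pair of further matches stood just after the RefSeq start of Mt1, at chr8:94179091-94179115.
Mt1, after the start: TGCACTCcgcccgaaaagTGCGCTC
GENCODE also places a start of Mt1 at 94179241 and a start of Mt2 at 94172860. These were looked at after the positions of the matches had been seen. The 250 bases before these downstream starts held 5 matches for Mt1 and 4 for Mt2. Of the 5 matches for Mt1, 3 were the match at -23 and the pair after the RefSeq start. A STAT element, TTCNNNGAA, was found in none of the 4 windows and in 7.02% of all windows. A match describes the letters of a window and is not a measured binding site.

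**Figure D1:**
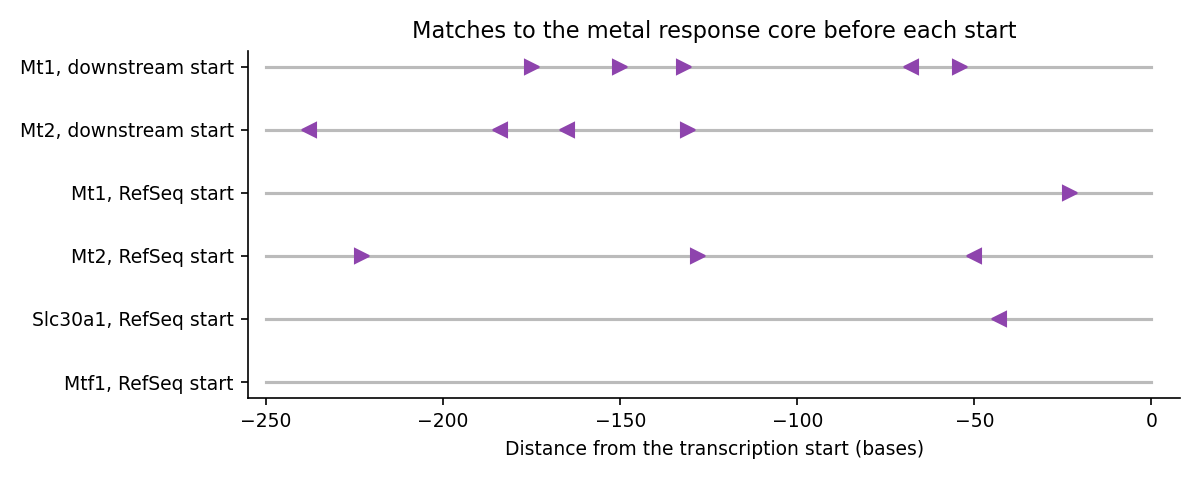
Positions of the matches to the metal response core (triangles, pointing right for the plus strand and left for the minus strand) in the 250 bases before each transcription start, with the distance from the start in bases on the x axis. Mt1 and Mt2 held 1 and 3 matches before their RefSeq starts, and 5 and 4 before their downstream starts, where the windows overlap and 3 of the Mt1 matches are those at and just after the RefSeq start.

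The first comparison, PBS versus Ctrl, set defeated and injected mice against handled mice, so defeat and daily injection cannot be told apart in it. Mt1, Mt2 and the zinc importer gene Slc39a14 rose in the stressed kidneys, by 1.92-fold, 2.28-fold and 1.72-fold. The sensor gene Mtf1 and the exporter gene Slc30a1 did not pass the test. Thus 3 of the 5 genes were called higher, against 2.14% of all genes tested, and 3.81% of genes were called in either direction. Over all 6 PBS mice the same 3 genes were called, against 4.28% of genes.

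Mt1 was at 52.0, 54.5, 59.3, 49.7, 45.4 and 84.2 FPKM in Ctrl replicates 1 to 6. It was at 102, 74.0, 90.6, 120.6 and 163 FPKM in PBS replicates 1 to 5. Of the 5 PBS mice, 4 lay above every Ctrl mouse, and the groups overlapped only because Ctrl replicate 6 stood above PBS replicate 2. The Ctrl mean was 57.5 ± 13.9 FPKM (SD, n = 6) and the PBS mean 110.2 ± 34.3 FPKM (SD, n = 5). On the log2 scale the difference was 0.94 (SE 0.17, edgeR adjusted p = 0.00464), and the exact two-sided permutation test of log2(FPKM + 0.1) gave p = 0.00649. Its smallest possible p is 0.00216 in each comparison. With PBS replicate 6, at 386 FPKM, the log2 fold change was 1.42 (adjusted p = 0.0116).

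Mt2 was at 28.6, 34.6, 52.2, 29.1, 27.0 and 55.1 FPKM in Ctrl replicates 1 to 6. In PBS replicates 1 to 5 it was at 74.2, 33.6, 62.8, 118 and 137 FPKM. PBS replicate 2 stood inside the Ctrl range, and the other 4 PBS mice lay above every Ctrl mouse. The mean rose from 37.8 ± 12.6 FPKM (SD, n = 6) to 85.3 ± 42.1 FPKM (SD, n = 5), which is 1.19 on the log2 scale (SE 0.29, edgeR adjusted p = 0.0270, exact permutation p = 0.0238). PBS replicate 6 had 620 FPKM of Mt2, and over all 6 PBS mice the log2 fold change was 2.19 (adjusted p = 0.0198). The call of Mt2 was not firm: it held in 16 of 28 alternative analyses, with adjusted p from 0.00436 to 0.0929, whereas the call of Mt1 held in all 28. Leaving out Ctrl replicate 1, 2, 4 or 5 or PBS replicate 1, 4 or 5 ended it, with adjusted p of up to 0.0880.

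Slc39a14 (ENSMUSG00000022094, minus strand of chromosome 14, 70303469 to 70351425) encodes ZIP14, a plasma membrane importer of zinc, iron and manganese. It was at 2.25, 2.10, 4.27, 2.52, 2.32 and 2.88 FPKM in the Ctrl mice. The 5 PBS mice had 3.66, 5.71, 4.66, 5.58 and 3.44 FPKM. Ctrl replicate 3 stood apart from its group and above 2 of the 5 PBS mice, which all lay above the other 5 Ctrl mice. The Ctrl mean was 2.72 ± 0.805 FPKM (SD, n = 6) and the PBS mean 4.61 ± 1.05 FPKM (SD, n = 5), which is 0.78 on the log2 scale (SE 0.17, edgeR adjusted p = 0.0129, exact permutation p = 0.0108). PBS replicate 6 had 4.97 FPKM, between the highest and lowest of its group, and the log2 fold change over all 6 was 0.79 (adjusted p = 0.00899). The order of the mice differed from that of the metallothioneins: PBS replicate 2 had the highest Slc39a14 and the lowest Mt1 and Mt2 among the 5 PBS mice, and PBS replicate 5 the reverse.

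Mtf1 (ENSMUSG00000028890, plus strand of chromosome 4, 124802104 to 124849379) was expressed at a low level. The Ctrl mice were between 1.39 and 1.95 FPKM (median 1.51) and the 5 PBS mice between 1.72 and 1.92 FPKM (median 1.81). Its log2 fold change was 0.21 (95% interval 0.01 to 0.41, adjusted p = 0.246). Slc30a1 (ENSMUSG00000037434, plus strand of chromosome 1, 191906767 to 191913247) encodes ZnT1, the zinc exporter of the plasma membrane. It was between 8.12 and 10.9 FPKM in the Ctrl mice (median 8.22) and between 9.44 and 10.2 FPKM in the 5 PBS mice (median 9.50). The log2 fold change of Slc30a1 was 0.16 (95% interval -0.04 to 0.36, adjusted p = 0.425). With PBS replicate 6, which had the lowest Mtf1 and the lowest Slc30a1 of all 18 mice at 1.31 and 7.75 FPKM, the changes were 0.14 (adjusted p = 0.528) and 0.10 (adjusted p = 0.628).

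**Figure D2:**
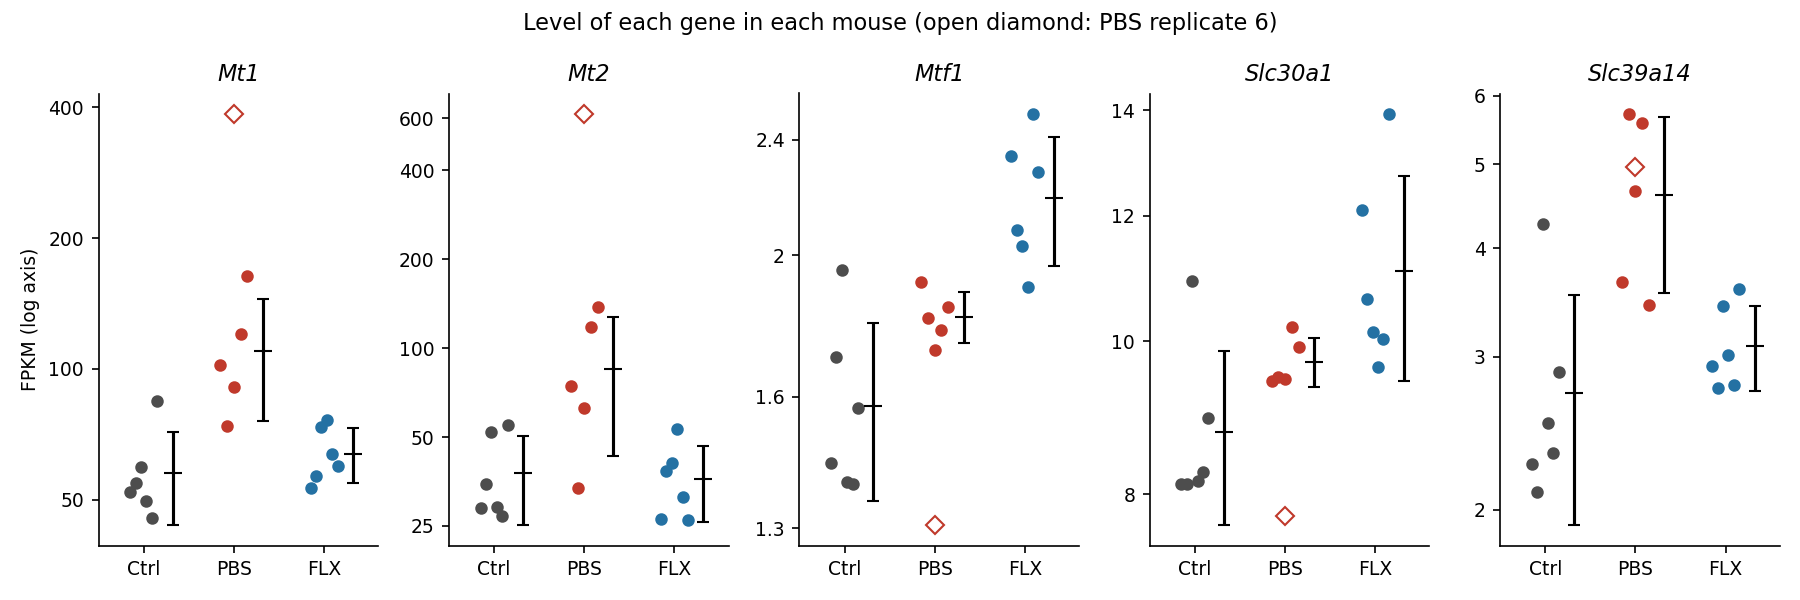
FPKM of the 5 genes in each mouse on log axes, with 1 point per mouse, an open diamond for PBS replicate 6, and the mean ± SD of the other mice beside each group (n = 6, 5 and 6 for Ctrl, PBS and FLX). Mt1, Mt2 and Slc39a14 were higher in the PBS group, and Mtf1 had its highest mean, 2.19 FPKM, in the FLX group.

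The second comparison, FLX versus PBS, asked how the stressed kidneys differed with fluoxetine. It uses the same PBS mice as the first, so a rise in the first and a fall here are not independent results. Mt1 and Mt2 fell in the FLX group, to 0.543 and 0.395 of the PBS level. Slc39a14 had a lower mean without passing the test, and Mtf1 and Slc30a1 did not pass it. With 2 of 5 genes called lower, the background was 0.420% of all genes tested called lower and 0.726% called in either direction. Over all 6 PBS mice the same 2 genes were called, against 0.557% of genes.

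Mt1 was at 53.1, 56.8, 73.3, 76.4, 63.7 and 59.7 FPKM in FLX replicates 1 to 6, a mean of 63.8 ± 9.25 FPKM (SD, n = 6). Of these mice, 5 lay below every PBS mouse, and only FLX replicate 4 passed the lowest of them, PBS replicate 2. The log2 fold change was -0.88 (SE 0.17, edgeR adjusted p = 0.0228, exact permutation p = 0.00433). Mt2 was at 26.4, 38.5, 40.8, 53.4, 31.4 and 26.3 FPKM, a mean of 36.1 ± 10.4 FPKM (SD, n = 6). All 6 values were below those of PBS replicates 1, 3, 4 and 5, and 3 of the 6 were below PBS replicate 2. The log2 fold change was -1.34 (SE 0.29, edgeR adjusted p = 0.0380, exact permutation p = 0.0195). Over all 6 PBS mice the changes were -1.36 for Mt1 (adjusted p = 0.0405) and -2.34 for Mt2 (adjusted p = 0.0420). Both calls were sensitive to the analysis: that of Mt1 held in 20 of 28 alternatives and that of Mt2 in 12 of 28, with highest adjusted p of 0.396 and 0.542 when only FLX replicates 1 and 2 were kept. The call of Mt1 ended without FLX replicate 1, 2 or 6 or PBS replicate 4 (adjusted p up to 0.0811), and that of Mt2 without any of 9 mice (adjusted p up to 0.130).

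Slc39a14 was at 2.93, 2.76, 3.43, 3.01, 2.78 and 3.59 FPKM in the FLX mice, a mean of 3.08 ± 0.345 FPKM (SD, n = 6). Of the 6 FLX mice, 5 lay below every PBS mouse. The log2 fold change was -0.68 (SE 0.17, 95% interval -1.02 to -0.33), with an edgeR adjusted p of 0.0697 and an exact permutation p of 0.00433. Over all 6 PBS mice it was -0.68 (adjusted p = 0.0522). The adjusted p was 0.00499 with DESeq2, 0.0210 without Ctrl replicate 3 and 0.0302 without PBS replicate 5, in a range of 0.00499 to 0.616 over 28 alternatives.

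Mtf1 was at 2.34, 2.08, 2.03, 1.90, 2.50 and 2.28 FPKM in the FLX mice, and 5 of the 6 lay above every PBS mouse. Its log2 fold change against the PBS group was 0.18 (95% interval -0.02 to 0.38, adjusted p = 0.529). Slc30a1 was between 9.63 and 13.9 FPKM in the FLX mice (median 10.4), with a log2 fold change of 0.10 (95% interval -0.11 to 0.30, adjusted p = 0.797). With PBS replicate 6 the values were 0.25 for Mtf1 (adjusted p = 0.343) and 0.16 for Slc30a1 (adjusted p = 0.597).

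**Figure D3:**
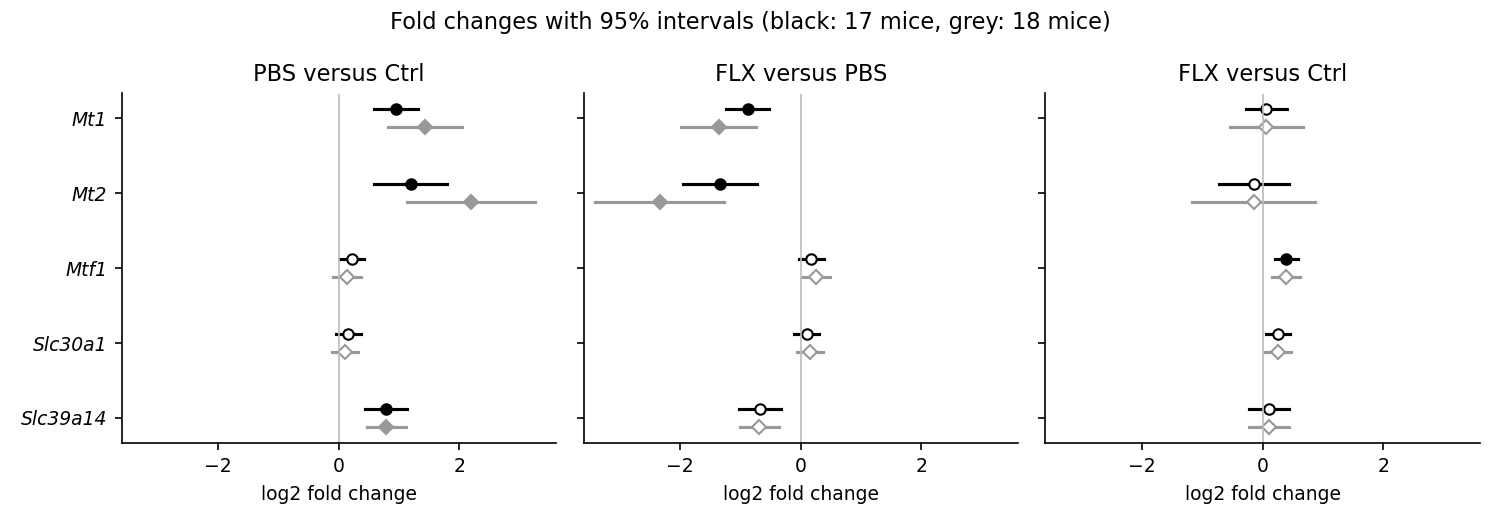
Log2 fold changes (x axis) of the 5 genes in the 3 comparisons, with 95% intervals from edgeR's quasi-likelihood fit, for 17 mice (black circles) and for 18 mice (grey diamonds). Filled symbols have an adjusted p under 0.05, and Mt1 and Mt2 were filled and opposite in sign in PBS versus Ctrl (0.94 and 1.19) and FLX versus PBS (-0.88 and -1.34). These comparisons share the PBS mice and are not independent.

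The third comparison, FLX versus Ctrl, set defeated mice under fluoxetine against undefeated mice. It shares its mice with the other comparisons. Mt1 and Mt2 did not pass the test, with log2 fold changes of 0.06 (95% interval -0.28 to 0.41, adjusted p = 0.876) and -0.15 (95% interval -0.73 to 0.43, adjusted p = 0.817). These intervals leave room for Mt1 up to 0.41 higher and for Mt2 down to -0.73 on the log2 scale. For Slc39a14 the change was 0.10 (95% interval -0.23 to 0.44, adjusted p = 0.766).

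Mtf1 was the 1 gene of the 5 called here, against 2.08% of all genes called higher and 3.67% called in either direction. It rose from 1.58 ± 0.220 to 2.19 ± 0.222 FPKM (SD, n = 6 each), a difference of 0.45 in mean log2(FPKM + 0.1) (exact permutation p = 0.00433). From scaled counts edgeR gave 0.39 on the log2 scale (SE 0.09, edgeR adjusted p = 0.0265). Of the 6 FLX mice, 5 lay above every Ctrl mouse, and Ctrl replicate 3 overlapped with FLX replicate 4. When PBS replicate 6 entered the shared fit the adjusted p was 0.0720, with 1.77% of genes called, and the call held in 20 of 28 alternatives (adjusted p 0.00214 to 0.222). It ended without Ctrl replicate 1, 4 or 5 or FLX replicate 5 (adjusted p up to 0.0649). Slc30a1 was at 8.76 ± 1.11 FPKM in the Ctrl group and 11.1 ± 1.64 FPKM in the FLX group (SD, n = 6 each). The difference in mean log2(FPKM + 0.1) was 0.33 (exact permutation p = 0.0152). From scaled counts edgeR gave 0.26 on the log2 scale (SE 0.09, edgeR adjusted p = 0.127). Ctrl replicate 3 had 10.9 FPKM against 8.12 to 8.95 FPKM in the other Ctrl mice, and without it the adjusted p was 0.0218, in a range of 0.0218 to 0.300 over the alternatives. In none of the 3 comparisons did the groups separate fully for any of the 5 genes, while 3.52%, 2.92% and 3.40% of all genes separated in PBS versus Ctrl, FLX versus PBS and FLX versus Ctrl. Over all genes tested, the median log2 difference in FLX versus Ctrl was 0.063 with limma on log2(FPKM + 0.1) and -0.0092 with edgeR. In FLX versus PBS these medians were 0.076 and -0.0027. The overlaps and permutation tests of the FLX mice rest on FPKM and include this shift.

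Mt1 and Mt2 rose and fell together from mouse to mouse. After removal of group means, Pearson's r between them was 0.897 and Spearman's rho 0.885 over 17 mice. In a permutation test within groups, the p adjusted over 10 gene pairs was 0.0001 for r, the smallest that the permutations can give after adjustment, and 0.0005 for rho. Without PBS replicate 5 and Ctrl replicate 6, the mice farthest from the median of Mt1, r was 0.899, and over 18 mice it was 0.963. None of the other 9 pairs passed the adjustment over 17 mice. Mtf1 and Slc30a1 came to r = 0.584 (rho = 0.456, adjusted permutation p = 0.146 and 0.344). Slc30a1 and Slc39a14 came to r = 0.585 (rho = 0.439, adjusted permutation p = 0.0615 and 0.132), and r fell to 0.194 without FLX replicate 6 and Ctrl replicate 3. Slc39a14 had r = -0.06 with Mt1 and r = 0.02 with Mt2 within groups (adjusted permutation p = 0.948 for each). These values depended on single mice: r with Mt2 was 0.515 without PBS replicates 2 and 5. With Mt1 it was 0.139 without PBS replicate 5 and Ctrl replicate 6. Before removal of group means, r was 0.575 with Mt1 and 0.509 with Mt2, which includes the differences between groups. Over 18 mice the r of Mtf1 and Slc30a1 was 0.684 (adjusted permutation p = 0.0282), and without PBS replicate 6 and Ctrl replicate 3 it was 0.442. Their rho over 18 mice was 0.525 and did not pass (adjusted permutation p = 0.169).

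**Figure D4:**
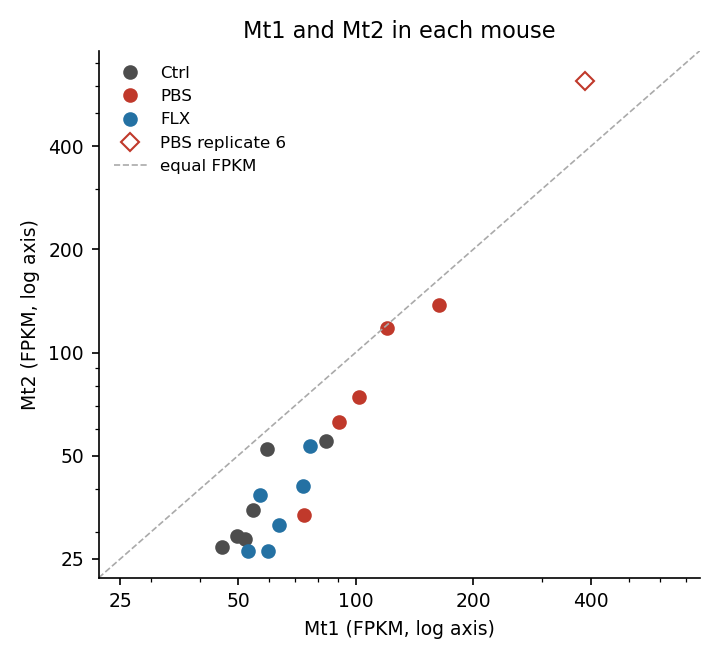
Mt1 (x axis) against Mt2 (y axis) in FPKM on log axes, with 1 point per mouse coloured by group, an open diamond for PBS replicate 6 and a dashed line of equal FPKM. The points follow a common band, and only PBS replicate 6 lies above the line, with 386 FPKM of Mt1 and 620 FPKM of Mt2.

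On the FPKM scale, which is per length, Mt2 was below Mt1 in 17 mice. The ratio of Mt2 to Mt1 was 0.551 to 0.880 in the Ctrl mice, 0.454 to 0.981 in PBS replicates 1 to 5 and 0.440 to 0.699 with FLX. It was 1.61 in PBS replicate 6. The groups overlapped, and no difference in the ratio passed an exact permutation test (p = 0.448 for PBS versus Ctrl, 0.106 for FLX versus PBS and 0.175 for FLX versus Ctrl, unadjusted). The level of the ratio depends on the transcript lengths behind FPKM. The length implied by the deposited counts, FPKM and count totals was 1.43 to 1.47 kilobases for Mt1 and 0.675 to 0.694 kilobases for Mt2, while the GENCODE transcripts run from 549 to 1085 bases for Mt1 and from 388 to 511 bases for Mt2. Depth-scaled counts (CPM) take no account of length, and Mt1 has the longer implied length, so their order does not compare transcript numbers. In PBS replicate 6 they were 551 for Mt1 and 418 for Mt2.

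The 5 genes whose log2 CPM values, which are depth-scaled counts, were most like those of Mt1 over 17 mice were Tiparp (r = 0.906), Enpp2 (0.868), Gm45774 (0.855), Per1 (0.842) and Net1 (0.840), out of 12094 genes with a mean of at least 1 FPKM. For Mt2 they were Gm45774 (0.918), Enpp2 (0.844), Rb1 (0.839), Foxo3 (0.839) and Net1 (0.832). These values are descriptions, since all genes share the same mice and groups. The r of Mt1 with Mt2, 0.935, was above that of every one of the 12094 genes with either gene. After removal of group means, the r of Mt1 was 0.734 with Tiparp and 0.573 with Per1, and with all 18 mice it was 0.435 with Tiparp and 0.786 with Per1. Per1 is a clock gene that glucocorticoids induce, Foxo3 is a transcription factor of the stress response, and Enpp2 encodes autotaxin.

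Gm45774 lies on the minus strand across Mt2, so its place in both lists needs care. It averaged 0.655 FPKM in the Ctrl group, 2.11 FPKM over PBS replicates 1 to 5 and 0.564 FPKM with FLX, and it reached 5.33 FPKM in PBS replicate 6. The antisense gene had log2 fold changes of 1.71 for PBS versus Ctrl (adjusted p = 0.0177) and -2.02 in FLX versus PBS (adjusted p = 0.0209). The libraries kept the strand, but the sources used here do not say whether the counting used it, so reads of Mt2 and Gm45774 may be shared. Mt1 and Mt2 are similar in sequence and may also share reads. The third metallothionein gene in the table, Mt3, a form known from the brain, was at 0.265 to 2.58 FPKM, with the highest value in PBS replicate 6. Mt3 was not called in any comparison, and PBS versus Ctrl gave 0.16 on the log2 scale (adjusted p = 0.855).

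The other zinc transporters were taken as a list of 22 genes, Slc30a2 to Slc30a10 for exporters and Slc39a1 to Slc39a13 for importers. Of these, 21 were in the table and 18 passed the filter. With edgeR, 0 of the 18 were called in each of the 3 comparisons. At an unadjusted p under 0.05 there were 1, 3 and 2 genes in PBS versus Ctrl, FLX versus PBS and FLX versus Ctrl, beside 17.9%, 11.1% and 20.4% of all genes. DESeq2 called 1, 2 and 0, beside 7.91%, 3.06% and 9.91% of all genes. With limma on log2(FPKM + 0.1) the count was 0 in each, beside 3.80%, 1.26% and 5.99%. The median log2 fold change of the list was 0.01, 0.02 and -0.03, beside -0.0078, -0.0027 and -0.0092 for all genes tested.

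By mean FPKM over 17 mice the leading genes of this list were Slc39a1, Slc39a7 and Slc39a5. Slc30a2, an exporter named here after its values were seen, was above Slc39a5 in the Ctrl group (14.8 FPKM) and the FLX group (14.9 FPKM) and below it in the PBS group (16.2 FPKM). Slc39a1, a plasma membrane importer, was at 30.6, 28.9 and 29.6 FPKM on average in the Ctrl, PBS and FLX groups. Slc39a7, which releases zinc from the endoplasmic reticulum, was at 28.1, 24.0 and 25.9 FPKM. Slc39a5, an importer of basolateral membranes, was at 13.4 FPKM in the Ctrl group, 20.4 ± 4.24 FPKM in the PBS group (SD, n = 5) and 13.4 ± 2.58 FPKM in the FLX group (SD, n = 6). On the log2 scale Slc39a5 differed by 0.61 in PBS versus Ctrl (adjusted p = 0.0718) and -0.70 in FLX versus PBS (adjusted p = 0.0881). It was called in PBS versus Ctrl over all 6 PBS mice (0.61, adjusted p = 0.0489), with DESeq2 (adjusted p = 0.0202) and without PBS replicate 5 (adjusted p = 0.0355). In FLX versus PBS it was called with DESeq2 (adjusted p = 0.0111), without Ctrl replicate 3 (adjusted p = 0.0253) and without PBS replicate 5 (adjusted p = 0.0407). DESeq2 also called the importer gene Slc39a2 there (1.55, adjusted p = 0.0306), at group means of 0.0999, 0.0661 and 0.210 FPKM in the Ctrl, PBS and FLX groups.

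**Figure D5:**
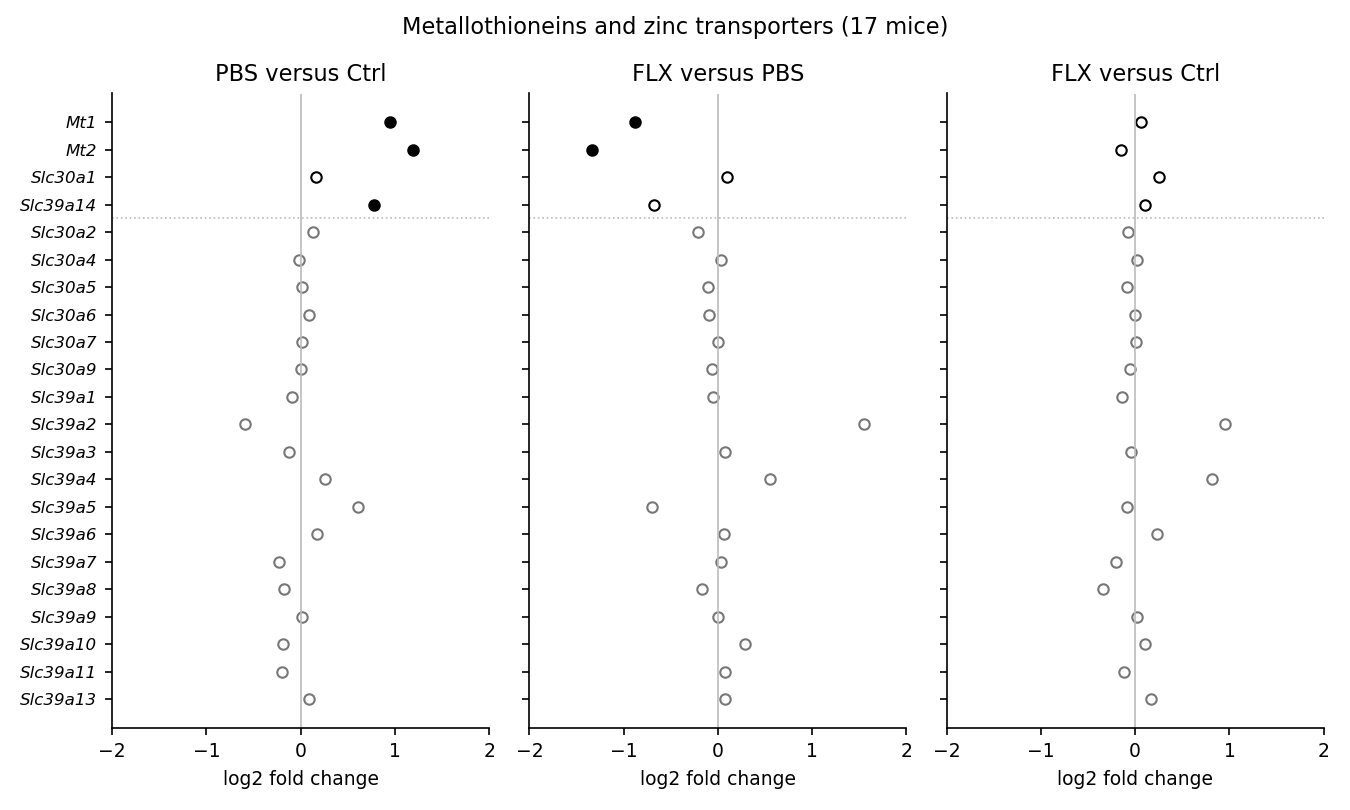
Log2 fold changes (x axis) of Mt1, Mt2, Slc30a1 and Slc39a14 (above the dotted line) and of 18 further zinc transporter genes in the 3 comparisons over 17 mice. Filled points have an adjusted p under 0.05, and none of the 18 genes below the line was filled.

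Further targets of MTF1 were Gclc, Selenow, Ndrg1 and Csrp1, and Slc39a10, which MTF1 is known to repress. With edgeR, 0 of these 5 genes were called in any comparison, as with DESeq2 and limma, and 1, 2 and 0 had an unadjusted p under 0.05 (17.9%, 11.1% and 20.4% of all genes). Slc39a10 was at -0.18 in PBS versus Ctrl, 0.29 in FLX versus PBS and 0.10 in FLX versus Ctrl on the log2 scale. The median of the other 4 was 0.23, -0.21 and 0.10. Ndrg1, a gene of hypoxia and metal stress, was at 379, 429 and 472 FPKM on average in the Ctrl, PBS and FLX groups. Gclc, the catalytic subunit of glutathione synthesis, was at 67.6, 110.6 and 74.4 FPKM, and PBS versus Ctrl gave 0.74 on the log2 scale (adjusted p = 0.124). Selenow, a small selenoprotein, was at 63.9, 72.7 and 63.4 FPKM.

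Of 9 genes that handle copper, the other metal bound by metallothioneins, 1 was called higher in PBS versus Ctrl, 0 were called in FLX versus PBS and 1 was called higher in FLX versus Ctrl, beside 2.14%, 0.726% and 2.08% of all genes. In FLX versus PBS, 1 gene had an unadjusted p under 0.05 (11.1% of all genes), and DESeq2 called 1 lower (1.52% of all genes) and limma 0 (0.311%). In PBS versus Ctrl, DESeq2 also called 1 gene lower (3.53% of all genes). The called gene of edgeR was Cp, for ceruloplasmin, in both cases. It was chosen after its values were seen. Cp rose from 2.53 FPKM in the Ctrl group to 7.02 FPKM in the PBS group and 5.18 FPKM in the FLX group, log2 fold changes of 1.49 (adjusted p = 2.46e-05) and 0.95 (adjusted p = 0.00159). With all 6 PBS mice the change in PBS versus Ctrl was 1.69 (adjusted p = 8.76e-05). There Sod1, for a copper and zinc superoxide dismutase, was called lower (-0.42, adjusted p = 0.0450), beside 1.82% of all genes called lower.

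The other inducers of metallothioneins were described by their own target lists. Of 8 glucocorticoid-induced genes, 7 were called higher in PBS versus Ctrl, 1 was called lower in FLX versus PBS and 3 were called higher in FLX versus Ctrl, beside 2.14%, 0.420% and 2.08% of all genes. DESeq2 called 7 higher, 4 lower and 4 higher, beside 4.38%, 1.52% and 5.56%, and limma 7 higher, 1 lower and 4 higher, beside 1.84%, 0.311% and 4.83%. Their median log2 fold changes were 1.16, -0.66 and 0.61. Zbtb16, a transcription factor gene, had a log2 value of 3.04 in PBS versus Ctrl (adjusted p = 0.000332) and 2.18 in FLX versus Ctrl (adjusted p = 0.00552). Per1 had 2.06 in PBS versus Ctrl (adjusted p = 0.000134) and -1.28 in FLX versus PBS (adjusted p = 0.0171). Sgk1, a kinase gene of sodium transport, had 1.03 in FLX versus Ctrl (adjusted p = 0.0173).

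Of 14 genes induced by interleukin-6 and STAT3, 12 passed the filter. In PBS versus Ctrl, 3 of the 12 were called higher (2.14% of all genes), DESeq2 called 5 (4.38%) and limma 2 (1.84%), and the median log2 fold change was 1.14. Cebpd, a transcription factor gene of the acute phase, had 1.57 (adjusted p = 0.000488), and Fga, a fibrinogen chain gene, had 1.21 (adjusted p = 0.0200). With PBS replicate 6, 8 of the 12 genes were called higher (2.45% of all genes) and the median was 2.29. In FLX versus PBS edgeR called Cebpd alone of this list, with -1.14 (adjusted p = 0.0190), beside 0.420% of all genes called lower. DESeq2 called 2 genes lower (1.52%) and limma 1 (0.311%). The median there was -0.11, with 4 of the 12 genes positive, and -1.78 over all 6 PBS mice. The median in FLX versus Ctrl was 0.71, with 12 of the 12 genes positive. In FLX versus Ctrl edgeR called 0 genes, 7 had an unadjusted p under 0.05 (20.4% of all genes), DESeq2 called 2 (9.91%) and limma 1 (5.99%). Of 8 Nrf2 target genes, edgeR called 0 in the 3 comparisons, with 4, 2 and 1 genes at an unadjusted p under 0.05 (17.9%, 11.1% and 20.4% of all genes). DESeq2 called 1, 1 and 0 of them, beside 7.91%, 3.06% and 9.91% of all genes, and limma called 0, 0 and 1, beside 3.80%, 1.26% and 5.99%. Over all 6 PBS mice 2 were called higher in PBS versus Ctrl (2.45% of all genes), Hmox1 for heme oxygenase (1.80, adjusted p = 0.0385) and Srxn1 for sulfiredoxin (0.77, adjusted p = 0.0395). The Nrf2 list had a median of 0.12 in PBS versus Ctrl.

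Of 13 marker lists, those that moved with a group are given here with that of the proximal tubule. The summed level of 5 neutrophil markers was 1.03 to 3.08 FPKM in the Ctrl mice, 6.24 to 25.4 FPKM in PBS replicates 1 to 5 and 0.0833 to 4.33 FPKM with FLX, and 2 of the 4 tested were called higher in PBS versus Ctrl (2.14% of all genes). It was 59.6 FPKM in PBS replicate 6, the mouse with the highest Mt1 and Mt2. Among PBS replicates 1 to 5 the sum reached 25.4 FPKM, and it was 7.79 FPKM in replicate 5, which had the highest Mt1 and Mt2 of the 5. Of these 5 mice, S100a8 and S100a9 were highest in replicate 4 (7.65 and 13.0 FPKM), with Mt1 at 120.6 FPKM and Mt2 at 118 FPKM. Both markers were lowest in replicate 2 (1.82 and 3.17 FPKM), which also had the lowest Mt1 and Mt2 of the 5. The 3 brown fat markers came to 413 FPKM in PBS replicate 5, against 3.17 FPKM in the lowest of the 5 PBS mice, 0.116 to 32.4 FPKM in the Ctrl mice and 0.913 to 189 FPKM in the FLX mice. Without PBS replicate 5, PBS versus Ctrl gave log2 fold changes of 0.78 for Mt1 (adjusted p = 0.0112) and 0.98 for Mt2 (adjusted p = 0.0718). Distal tubule markers were at 106 to 143 FPKM in the Ctrl mice, 144 to 249 FPKM in PBS replicates 1 to 5 and 119 to 202 FPKM with FLX, and 1 of 2 was called higher in PBS versus Ctrl (2.14% of all genes). Liver markers were at 53.9 to 95.4 FPKM in the Ctrl mice, 33.0 to 75.1 FPKM in PBS replicates 1 to 5 and 24.6 to 42.2 FPKM with FLX. Proximal tubule markers overlapped between groups, at 1033 to 1311 FPKM in the Ctrl mice, 1058 to 1273 FPKM in the 5 PBS mice and 1047 to 1282 FPKM in the FLX mice. The part of these cell types in the metallothionein levels was not tested.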

How the data were processed

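Poly(A) RNA of 18 right kidneys was sequenced as strand-marking, paired-end libraries. The authors deposited 1 table with estimated counts and FPKM for each gene and mouse. Per the paper, reads were trimmed with fastp, aligned to GRCm38 with HISAT-3N and assembled with StringTie, while the submitters' processing notes also name cutadapt, HISAT2, UMI-tools, DESeq2 and edgeR. The sources used here do not give the counting step or its use of strand. The deposited FPKM values carry the authors' scaling for length and depth. Groups followed the labels.

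Counts were rounded, filtered by group (filterByExpr), scaled by TMM and fitted with edgeR 4.0.16 (R 4.3.3) in 1 quasi-likelihood model of 3 groups, with Benjamini-Hochberg adjustment over all 20251 genes tested. PBS replicate 6 was left out because the study deleted 1 PBS mouse, and the choice of mouse was made here from the data. Single genes were also compared by exact two-sided permutation tests of log2(FPKM + 0.1) with SciPy 1.17.1, unadjusted over 15 comparisons. Correlations used 100000 permutations within groups. DESeq2 1.42.0, limma 3.58.1 on log2(FPKM + pseudocount), other scalings, no filter, a replicate block, 2 groups at a time, FLX replicates 1 and 2 only and each mouse left out were alternatives. The fit was tested on simulated data with the same spread for every gene and no outlying mice, so that test does not bear on calls that depend on single mice. In the group comparisons the p-values set a difference between groups against the spread between mice.

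The 5 genes and all lists were chosen with earlier results of these data known. Beyond the 5 genes, the text names genes by these rules: called genes and the 3 with the highest mean FPKM of the zinc transporter, metallothionein and MTF1 target lists, the 5 most like Mt1 and Mt2, and the 2 called genes with the largest change in the interleukin-6, glucocorticoid and Nrf2 lists. Promoter windows came from RefSeq (GRCm38.p6) and further starts from GENCODE. Slc39a14 had no window and is named only.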

Additional observations from a re-analysis of the deposited data

Results flagged for a closer look

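Several single mice lay farther from their group than Dixon's test at 95% allows, a test that by chance picks out some groups of this kind. Among the Ctrl mice, replicate 6 had 84.2 FPKM of Mt1, and replicate 3 had 10.9 FPKM of Slc30a1 and 4.27 FPKM of Slc39a14. Among all 6 PBS mice, replicate 6 was the mouse apart for 4 genes, with 386 FPKM of Mt1, 620 FPKM of Mt2, 1.31 FPKM of Mtf1 and 7.75 FPKM of Slc30a1. PBS replicate 6 was also kept out of the comparisons over 17 mice, and its Mt1 (386 FPKM), Mt2 (620 FPKM) and Slc39a14 (4.97 FPKM) were above every Ctrl mouse. What sets these mice apart was not tested.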

How the results depend on the processing

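Each of the 15 results (5 genes in 3 comparisons) was recomputed under 28 alternatives, and 8 kept their direction and their side of the threshold throughout. The rises of Mt1 and Slc39a14 in PBS versus Ctrl were among these 8, with adjusted p from 6.88e-06 to 0.0198 and from 0.000222 to 0.0432. Of the 420 values, 44 lost a call, 7 gained one and 1 turned sign. That 1 was Mt1 in FLX versus Ctrl, at -0.10 with only FLX replicates 1 and 2. The causes were not tested.

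Mt2 lost its call in PBS versus Ctrl with limma at pseudocounts of 0.1, 1 and 0.01 (1.07, 1.05 and 1.07) and with only the 2 groups (1.20), and leaving out 1 mouse gave 0.98 to 1.39, with the call lost without Ctrl replicates 1, 2, 4 or 5 or PBS replicates 1, 4 or 5. For Mt1 in FLX versus PBS it was lost with limma at 1 and 0.01 (-0.74 and -0.75), with only FLX replicates 1 and 2 (-1.05) and without FLX replicates 1, 2 or 6 or PBS replicate 4 (range without 1 mouse -0.99 to -0.72). For Mt2 in FLX versus PBS it was lost with no filter (-1.35), limma (-1.12, -1.10 and -1.12), only the 2 groups (-1.33), only FLX replicates 1 and 2 (-1.44) and without Ctrl replicate 2, FLX replicates 1, 2, 3, 5 or 6 or PBS replicates 1, 4 or 5 (range -1.54 to -1.12). Mtf1 in FLX versus Ctrl lost its call with all 6 PBS mice (0.39), no filter (0.38), only FLX replicates 1 and 2 (0.46) and without Ctrl replicates 1, 4 or 5 or FLX replicate 5 (range 0.36 to 0.45). Slc30a1 in FLX versus Ctrl gained a call with limma (0.33, 0.30 and 0.34) and without Ctrl replicate 3 (range 0.20 to 0.32). Slc39a14 in FLX versus PBS gained one with DESeq2 (-0.68) and without Ctrl replicate 3 or PBS replicate 5 (range -0.78 to -0.58). Of the zinc transporters, 1 was called in PBS versus Ctrl with all 6 PBS mice and 1 with DESeq2, 2 in FLX versus PBS with DESeq2, and 0 to 1 in each comparison without 1 mouse.

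Over all genes, 772 calls in PBS versus Ctrl became 1413 with DESeq2, 496 with 2 groups and 388 to 1662 without 1 mouse. In FLX versus PBS, 147 became 88 with no filter, 498 with DESeq2, 242 to 255 with limma, 95 with 2 groups, 0 with FLX replicates 1 and 2 only and 47 to 250 without 1 mouse. In FLX versus Ctrl, 744 became 354 with all 6 PBS mice, 378 with no filter, 1615 with DESeq2, 1165 to 1214 with limma (1197 at a pseudocount of 1), 4 with FLX replicates 1 and 2 only and 271 to 3099 without 1 mouse. Of the calls in FLX versus PBS and FLX versus Ctrl, 42.2% and 56.7% were higher with edgeR and 75.3% and 80.6% with limma at 0.1. The highest count in each comparison among the mice left out was without Ctrl replicate 3.

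Mice of different groups share replicate numbers. Of 16 same-numbered pairs, 2 had correlated deviations over 0.1 (-0.205 to 0.227, median -0.031), beside 7 of 80 pairs with other numbers (-0.214 to 0.165, median -0.0036). Of 17 mice, 4 correlated best with their own number, and the numbers were not taken to pair the mice. With a replicate block, Mt1 and Mt2 in FLX versus PBS came to -0.90 and -1.31, Mt2 in PBS versus Ctrl to 1.16 and Mtf1 in FLX versus Ctrl to 0.39, none of which passed the threshold, and the calls over all genes to 419, 67 and 258 in PBS versus Ctrl, FLX versus PBS and FLX versus Ctrl. FLX replicates 3 to 6 had the fewest counts.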

Other observations

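Outside the comparisons, Slc39a8, the gene of the importer ZIP8, was at 1.36 FPKM in PBS replicate 6, against group means of 6.87, 6.04 and 5.74 FPKM in the Ctrl, PBS (5 mice) and FLX groups.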
